A study of Mus musculus with 32 samples.

Results

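The genes described here are 6 components of the renin-angiotensin system, Agt, Ren1, Ace, Agtr1a, Mme and Enpep, taken by name from a table of read counts for 53700 genes. All 6 were among the 13961 genes that passed a filter on low values and were tested. Counts came from RNA sequencing of 32 kidneys of male C57BL/6 iKspCre-Pkd1del mice. These mice carry an inducible Cre driven by the KspCad promoter, which is active in tubular epithelium, and loxP sites around exons 2 to 11 of Pkd1, the gene mutated in most families with dominant polycystic kidney disease (PKD). The PKD group (n = 12) received 150 mg/kg tamoxifen by gavage on days 18 and 19 of life and control chow, and was killed on day 95. The PKD + Salsalate group (n = 12) was handled in the same way but ate chow with 2.5 g/kg of the AMPK activator salsalate from day 81, for 2 weeks. By the study's account, mice of both PKD groups were selected for a similarly mild cystic phenotype, judged by kidney weight relative to body weight. The groups were therefore alike in that measure by choice. The wildtype group (n = 8) consisted of mice that carried the alleles without tamoxifen and was 109 days old, so Pkd1 deletion, tamoxifen and age cannot be told apart in any comparison with wildtype.

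The renin-angiotensin system controls blood pressure, sodium balance and kidney blood flow. Renin, made by granular cells of the afferent arteriole, cuts angiotensinogen, and angiotensin-converting enzyme turns the product into angiotensin II, which acts through the type 1 receptor. The kidney holds a local version of the system, in which the proximal tubule makes angiotensinogen and carries a set of membrane peptidases that form or break down angiotensin peptides.

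Between 11193136 and 109807664 reads per kidney were counted on genes. Values are given as CPM, read counts scaled to a common library size with the trimmed mean of M-values, and a call means an adjusted p under 0.05 in edgeR's quasi-likelihood test over the 13961 genes, with Benjamini-Hochberg adjustment. Some features of the libraries touch the results below. The names of 5 wildtype libraries, replicates 1 to 5, end in R, and those of wildtype replicates 6 to 8 and of all PKD libraries do not. The labels do not say what the ending stands for. Results for the 6 genes, and most counts of other gene lists, are therefore given against each set of wildtype libraries beside those against all 8. Several other named genes are given only against all 8. The sets also differed in the share of alignments on genes, at 73.6% to 76.4% in the libraries ending in R and 80.9% to 83.1% in the other 3, with 74.1% to 82.9% in PKD. The part of this share in the differences between the sets was not tested. The kidney of PKD replicate 10 carried liver transcripts, with a sum of 6582 CPM over 20 liver genes against 215 to 330 in the other PKD kidneys, and Alb at 1930 CPM against at most 3.61 CPM. The kidney of PKD replicate 12 carried adrenal cortex transcripts, with a sum of 94.1 CPM over 8 genes against at most 5.11 CPM in the other PKD kidneys. Pkd1 itself was higher in PKD, at 92.1 ± 15.1 CPM (SD, n = 12) against 68.7 ± 10.9 CPM (n = 8) in wildtype. That count covers the whole gene and all cell types, and therefore does not measure the deletion of exons 2 to 11. As the tissue is whole kidney, fewer cells of a type and less RNA per cell cannot be told apart.

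Of the 6 genes 3, Ren1, Agt and Ace, were called lower in PKD than in wildtype, beside 25.0% of all genes tested. Only the call for Agt held against both sets of wildtype libraries. The sequence just before the start sites of the 3 genes is shown because they were called lower. A motif search in it describes the promoters only. Promoter sequences of the mouse were taken from RefSeq, on GRCm38.p6. The table had an entry for 5 of the 6 genes, and for Ace the first of its listed starts is shown. Each run holds the 120 bases before the start, written 5′ to 3′ on the strand of the gene, at chr1:133350554-133350673 (plus strand) for Ren1, chr8:124569707-124569826 (minus strand) for Agt and chr11:105967828-105967947 (plus strand) for Ace. Capitals mark the letters TATAAA, the core of a TATA box, or the same letters on the other strand.
Ren1: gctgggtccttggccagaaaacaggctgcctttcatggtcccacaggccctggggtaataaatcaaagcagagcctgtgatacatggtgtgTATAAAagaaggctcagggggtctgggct
Agt: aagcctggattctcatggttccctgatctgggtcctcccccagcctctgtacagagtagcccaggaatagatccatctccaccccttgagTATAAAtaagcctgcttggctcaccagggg
Ace: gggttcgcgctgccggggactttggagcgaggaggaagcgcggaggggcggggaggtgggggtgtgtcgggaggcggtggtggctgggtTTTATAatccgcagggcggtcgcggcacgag
In Ren1 and Agt the motif lay on the strand of the gene and began 29 and 30 bases before the start. In Ace it lay on the other strand, with its leftmost base 31 bases before the start. Enpep, which was not called, also held it on the other strand, 52 bases before the start, and Mme did not hold it before any of its 3 listed starts. Of 32851 mouse promoters, 12.4% held TATAAA on either strand in the 250 bases before the start, and 7.6% held it on the strand of the gene. The window of the Ace start shown was rich in G and C, at 67.2% of 250 bases, whereas that of Agt had 55.6%, that of Ren1 51.6%, and the median of all promoters was 52.4%. The other listed start of Ace had 58% and did not hold TATAAA on either strand. No window of the 5 genes held the cAMP response element TGACGTCA on either strand, which 1.5% of all promoters did.

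To set the 6 genes side by side, CPM were divided by the length of the canonical transcript. Per kilobase, Ace had the highest mean level in all groups and Ren1 the second highest. In wildtype kidneys, Ace stood at 45.8 ± 18.6 CPM per kb and Ren1 at 43.7 ± 19.9 CPM per kb, closer to each other than their spread. Agt followed at 16.1 ± 2.38, Enpep at 14.0 ± 3.31 and Agtr1a at 14.0 ± 1.96 CPM per kb, again without a gap larger than the spread between neighbors, and Mme was lowest at 8.82 ± 2.41 CPM per kb. In PKD kidneys Agt, at 12.4 ± 2.07 CPM per kb, ranked below Enpep and Agtr1a, at 16.0 ± 3.23 and 15.8 ± 1.64 CPM per kb. The gap between Agtr1a and Agt was 3.33 CPM per kb, more than the larger SD of the pair. The order in PKD + Salsalate kidneys was Ace, Ren1, Agtr1a, Enpep, Agt and Mme, with Agt at 11.1 ± 1.62 CPM per kb.

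The first question was whether these genes differed between PKD and wildtype kidneys. Of the 6 genes, 4 were called, Agtr1a higher and Agt, Ren1 and Ace lower, against 49.1% of all genes tested (24.1% higher and 25.0% lower). Of the 13961 genes tested, 8342 were called with only the wildtype libraries ending in R in the fit, and 5654 with only the rest. The fold changes of the 6 genes were small, the largest being a fall of 0.46 on the log2 scale. Agt was the only one of the 6 that was called against both sets of wildtype libraries and in each of the 32 fits that left out 1 kidney.

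**Figure D1:**
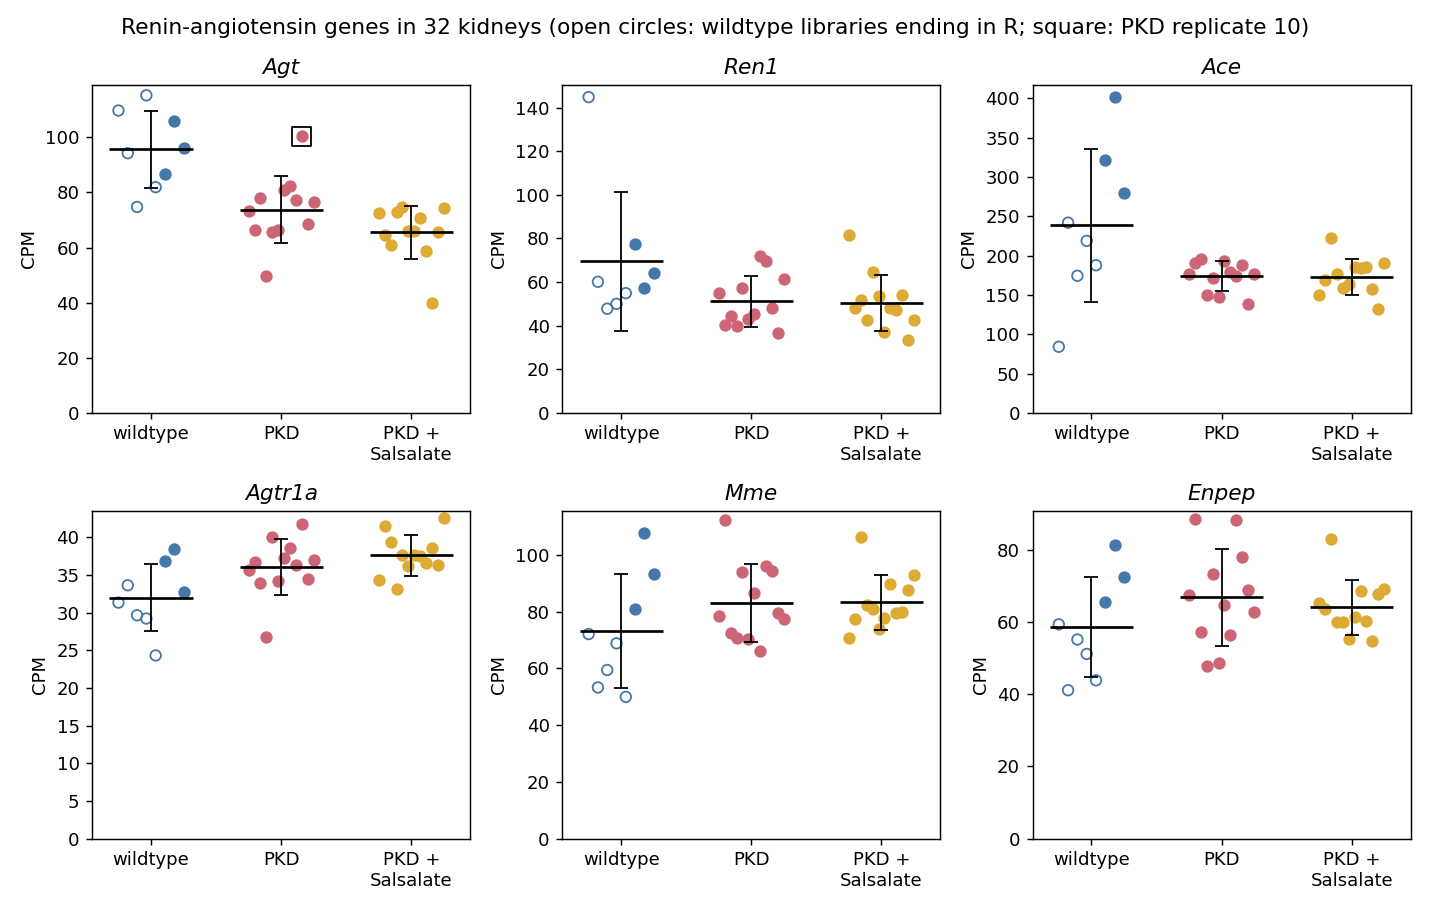
CPM (vertical axes, each starting at 0) of the 6 genes in each kidney, by group, with the mean as a horizontal bar and the SD as an error bar. Open circles are the 5 wildtype libraries whose name ends in R and the square in the Agt panel marks PKD replicate 10. Among wildtype kidneys, Ace, Mme and Enpep separate by that ending, and Ren1 has 1 high kidney at 144.8 CPM.

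Agt (ENSMUSG00000031980; GRCm39 chr8:125279301-125296716, minus strand) encodes angiotensinogen, the precursor of all angiotensin peptides. In wildtype kidneys its level ranged from 74.7 to 115 CPM, with a median of 95.2 CPM. In PKD kidneys it ranged from 49.6 to 100 CPM, with a median of 75.0 CPM. The groups overlapped, but 11 of 12 PKD kidneys lay below the wildtype median and 6 below the lowest wildtype kidney. Agt fell by 0.37 on the log2 scale (SE 0.10, adjusted p = 0.00278). On the linear scale it fell by 22.8%.

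The only PKD kidney above the wildtype median was replicate 10, the one with liver transcripts, at 100.4 CPM. The next highest PKD kidney had 82.4 CPM. The liver is the main source of circulating angiotensinogen, and the part of liver RNA in the Agt count of this kidney was not tested. Without replicate 10 the PKD kidneys ranged from 49.6 to 82.4 CPM, and the fall was 0.42 on the log2 scale (SE 0.10, adjusted p = 0.000607). The mean of the PKD group was 73.8 ± 12.3 CPM (SD, n = 12) with it and 71.4 ± 9.40 CPM (n = 11) without it. Agt did not separate by the ending of the library name, with 74.7 to 115 CPM in the 5 libraries ending in R and 86.8 to 106 CPM in the other 3. It fell by 0.38 on the log2 scale against either set, with adjusted p = 0.00723 and 0.0262 respectively. Over the 32 fits without 1 kidney, the log2 fold change stayed between -0.42 and -0.33.

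**Figure D2:**
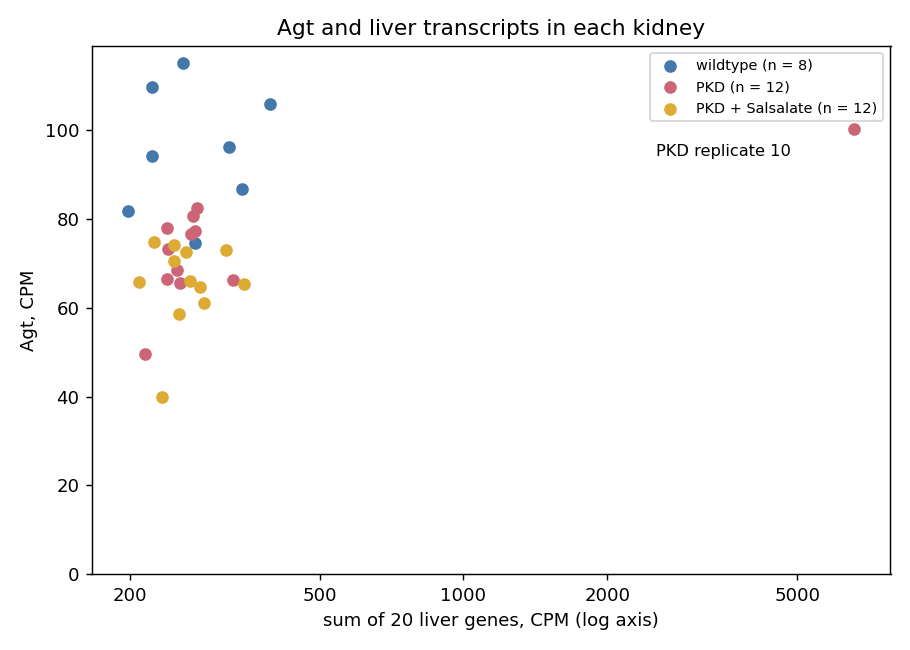
Agt (CPM, vertical axis) against the summed level of 20 liver genes (CPM, logarithmic horizontal axis) in each of the 32 kidneys, colored by group. PKD replicate 10 stands apart at a liver sum of 6582 CPM and has the highest Agt of the PKD kidneys, 100.4 CPM.

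Ren1 (ENSMUSG00000070645; GRCm39 chr1:133278248-133288063, plus strand) encodes renin, the enzyme that cuts angiotensinogen. Wildtype kidneys ranged from 47.8 to 145 CPM, with a median of 58.7 CPM. PKD kidneys ranged from 36.8 to 71.9 CPM, with a median of 46.8 CPM, and 9 of 12 lay below the wildtype median. Ren1 fell by 0.44 on the log2 scale (SE 0.17, adjusted p = 0.0331).

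This call rested largely on wildtype replicate 1. That kidney had 144.8 CPM, whereas the next highest wildtype kidney had 77.2 CPM. Without it the fall was 0.20 on the log2 scale (SE 0.14, adjusted p = 0.251). The call was also lost without wildtype replicate 6 (adjusted p = 0.0541), PKD replicate 2 (0.0521) or PKD replicate 11 (0.0547). Against the 5 libraries ending in R, which include replicate 1, Ren1 fell by 0.49 (adjusted p = 0.0374), and against the other 3 the log2 fold change was -0.37 (adjusted p = 0.126). Ren1 is made by few cells, and genes of renin cells and of the arteriole were therefore examined beside it. Of 15 such genes 13 were tested, of which 4 rose and 1 fell in PKD, with a median log2 fold change of 0.15 (-0.01 over all genes tested). These 5 calls compare with 49.1% of all genes called. In the fit with only the libraries ending in R 4 rose and 2 fell, and in that with only the rest 4 rose and 1 fell. Against all wildtype kidneys the largest rise was that of Acta2, smooth muscle actin, at 1.36, and the gene that fell was Adcy5, an adenylyl cyclase, by 0.46. In the same fit all 6 genes of a fibroblast list rose, and the part of other cell types in the rise of Acta2 was not tested. Akr1b7, which renin cells of the mouse express, had a log2 fold change of 0.15 (adjusted p = 0.549). In PKD + Salsalate it was called lower against the wildtype libraries ending in R, with the largest fall of the list. It was not called lower there against all wildtype libraries or against the rest. Akr1b7 was named after its values were seen. Of 4 genes of the macula densa, the tubular cells that signal to renin cells, only Avpr1a passed the filter, and it fell by 0.36 (adjusted p = 0.0434). Against the libraries ending in R the log2 fold change of Avpr1a was -0.15, which was not called, and against the others it was -0.63.

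Ace (ENSMUSG00000020681; GRCm39 chr11:105858469-105880790, plus strand) encodes angiotensin-converting enzyme, which in the mouse kidney sits on endothelium and on the brush border of the proximal tubule. PKD kidneys had a narrow range of 139 to 196 CPM, with a median of 177 CPM. Wildtype kidneys ranged from 84.1 to 401 CPM, with a median of 230 CPM, so that all 12 PKD kidneys lay below the wildtype median and inside the wildtype range. The lowest wildtype value came from replicate 1, the kidney with the highest Ren1. Ace fell by 0.46 on the log2 scale (SE 0.15, adjusted p = 0.0118).

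The size of this fall depended on which wildtype kidneys it was set against. The 3 libraries without R had 280 to 401 CPM and lay above the 5 ending in R, at 84.1 to 242 CPM. Against the 3 without R, Ace fell by 0.94 (SE 0.11, adjusted p = 1.45e-07), and against the 5 ending in R the log2 fold change was -0.08 (SE 0.14, adjusted p = 0.650). Without wildtype replicate 7, the highest kidney, it was -0.31 (adjusted p = 0.0597), and without replicate 1 it was -0.59 (adjusted p = 9.82e-05). With limma-voom it was -0.32 (adjusted p = 0.0952). The proximal tubule genes separated in the same way, with a sum over 18 genes of 12873 to 17560 CPM in the libraries ending in R and 19547 to 22901 CPM in the others. The PKD kidneys lay between 13332 and 16795 CPM. The summed level of 7 endothelial genes ran in the opposite direction, at 483 to 623 CPM in the libraries ending in R and 379 to 401 CPM in the others. The part of cell composition in the difference between the sets was not tested.

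Agtr1a (ENSMUSG00000049115; GRCm39 chr13:30518942-30566850, plus strand) encodes the type 1a angiotensin II receptor, the main receptor for angiotensin II in the mouse kidney. Wildtype kidneys ranged from 24.3 to 38.4 CPM, with a median of 32.0 CPM, and PKD kidneys from 26.8 to 41.8 CPM, with a median of 36.5 CPM. The groups overlapped, with 11 of 12 PKD kidneys above the wildtype median. Agtr1a was 12.6% higher in PKD (log2 fold change 0.17, SE 0.07, adjusted p = 0.0423). The call did not survive small changes, since it was lost in 12 of the 32 fits without 1 kidney, with the lowest log2 fold change, 0.12, and the highest adjusted p, 0.129, without wildtype replicate 5. With DESeq2 the adjusted p was 0.0541. Against the 5 libraries ending in R the log2 fold change was 0.27 (adjusted p = 0.00259), and against the other 3 it was 0.01 (adjusted p = 0.931).

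Mme and Enpep encode membrane peptidases of the brush border and of podocytes. Mme (ENSMUSG00000027820; GRCm39 chr3:63148889-63293451, plus strand) is neprilysin, which cuts angiotensin I and natriuretic peptides. Its level ranged from 49.9 to 108 CPM in wildtype and from 66.1 to 112 CPM in PKD, with medians of 70.4 and 78.9 CPM. Enpep (ENSMUSG00000028024; GRCm39 chr3:129062824-129126369, minus strand) is aminopeptidase A, which turns angiotensin II into angiotensin III. Its level ranged from 41.1 to 81.2 CPM in wildtype and from 47.8 to 88.5 CPM in PKD, with medians of 57.3 and 66.1 CPM. Neither gene was called. The log2 fold change was 0.18 for Mme (95% interval -0.05 to 0.41, adjusted p = 0.181) and 0.19 for Enpep (-0.05 to 0.42, adjusted p = 0.184).

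As for Ace, the wildtype kidneys without R lay above those ending in R, at 80.8 to 108 against 49.9 to 72.1 CPM for Mme and at 65.4 to 81.2 against 41.1 to 59.4 CPM for Enpep. The direction of both comparisons turned with the set. Against the libraries ending in R, Mme rose by 0.44 on the log2 scale (adjusted p = 0.000682) and Enpep by 0.41 (adjusted p = 0.00457). Against those without R the log2 fold changes were -0.17 (adjusted p = 0.272) and -0.12 (adjusted p = 0.511). Both genes also passed the threshold without wildtype replicate 7, at 0.28 (adjusted p = 0.0267) and 0.27 (adjusted p = 0.0497). Of 6 podocyte genes 5 fell in PKD, with a median log2 fold change of -0.41, beside 25.0% of all genes tested, and the largest fall was that of Nphs1, nephrin, by 0.53. Of the 6, 3 fell and none rose against the libraries ending in R, while against the rest 3 fell and 1, Synpo, rose.

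**Figure D3:**
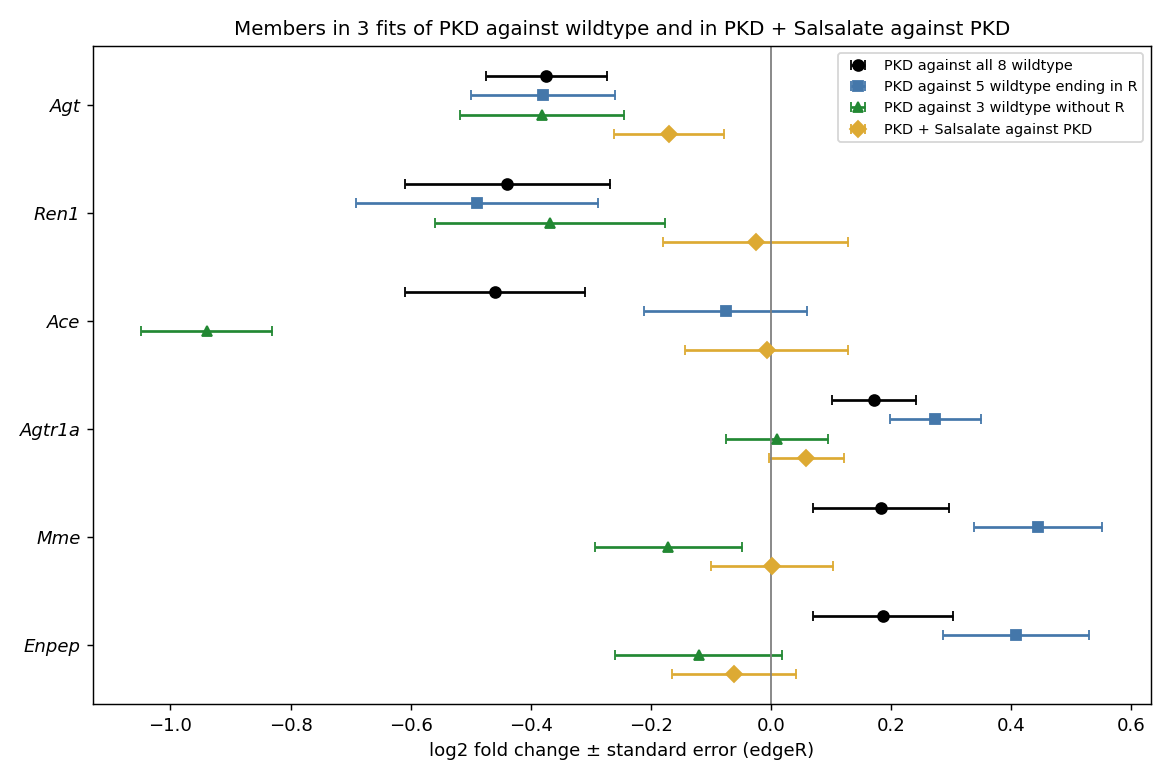
Log2 fold change ± SE (horizontal axis) of the 6 genes in PKD against all 8 wildtype kidneys (black), against the 5 ending in R (blue) and against the 3 without R (green), and in PKD + Salsalate against PKD (yellow). Agt lies close together in the 3 fits against wildtype, at -0.37 to -0.38, whereas Ace moves from -0.08 to -0.94 and Mme and Enpep change sign.

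Since Ace, Mme, Enpep and Agt are all known from the proximal tubule, each was also set against the mean log2 CPM of 18 proximal tubule genes in the same kidney. For these ratios, a 2-sided permutation test compared the group means (exact for 12 against 8 kidneys, with 100000 permutations for 12 against 12), with adjustment over 12 tests. Where the wildtype libraries were split by ending, the adjustment covered only the comparisons with wildtype. Of the 18 proximal tubule genes, 3 rose and 6 fell in PKD, with a median log2 fold change of -0.09, a share near the 49.1% of all genes called. Their direction turned with the set of wildtype libraries. Against those ending in R 11 rose and 4 fell (median 0.27), and against the others 1 rose and 11 fell (median -0.46). Against all 8, the largest rise was that of Lrp2, the endocytic receptor megalin, at 0.58, and the largest fall that of Slc7a13, an amino acid transporter, by 0.80. Relative to these genes, Mme was 0.28 higher in PKD on the log2 scale (adjusted p = 0.00686, exact permutation test), above the wildtype median in 12 of 12 PKD kidneys, and Enpep was 0.26 higher (adjusted p = 0.0340), above it in 11 of 12. The call for Mme was lost against the libraries without R (0.23, adjusted p = 0.0563). That for Enpep was lost against either set, at 0.26 with those ending in R (adjusted p = 0.0724) and 0.27 with the rest (adjusted p = 0.0703). Agt was 0.31 lower (adjusted p = 0.0352, exact permutation test), below the wildtype median in 12 of 12 PKD kidneys. The ratio for Agt rested on the wildtype libraries ending in R, as against the other 3 the difference was 0.016 (adjusted p = 0.866), and without wildtype replicate 1 it was -0.25 (adjusted p = 0.0657). For Ace the difference was -0.28 (adjusted p = 0.0807), and without wildtype replicate 1, left out after the data were seen, it was -0.44 (adjusted p = 0.000238). It was -0.13 with only the libraries ending in R (adjusted p = 0.447), with only the rest -0.52 (adjusted p = 0.0176), and with summed markers -0.18 (adjusted p = 0.265). Of the 8 wildtype kidneys 7 had a higher ratio of Ace to these genes than any of the 24 PKD kidneys with or without salsalate, and the remaining one, replicate 1, had a lower ratio than all of them.

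Beyond the 6 genes, 20 further genes of the pathway were examined, of which 13 were tested. In PKD 5 of the 13 rose and 2 fell, with a median log2 fold change of -0.02, a share near the 49.1% of all genes called. With only the libraries ending in R 5 rose and 3 fell, and with only the rest none rose and 4 fell. Those that rose included 3 peptidases that act on angiotensin peptides. Anpep, aminopeptidase N, had the largest rise, from 104 ± 38.6 to 150 ± 27.6 CPM (log2 fold change 0.52, adjusted p = 0.00237). Lnpep, the insulin-regulated aminopeptidase that binds angiotensin IV, rose by 0.38 on the log2 scale (adjusted p = 0.0108). Prep, prolyl endopeptidase, rose by 0.21 (adjusted p = 0.0236). The rise of all 3 differed between the sets of wildtype kidneys. Against the libraries without R the log2 fold changes were 0.02 for Anpep, -0.00 for Lnpep and 0.07 for Prep, with adjusted p between 0.622 and 0.991, and against those ending in R 0.93, 0.67 and 0.30.

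Among receptors, Mas1, which binds a shorter angiotensin peptide, rose from 2.04 ± 0.69 to 2.88 ± 0.98 CPM (log2 fold change 0.49, adjusted p = 0.0463), and the call was lost without wildtype replicate 1 (0.38, adjusted p = 0.107) or PKD replicate 10 (0.47, adjusted p = 0.0616). None of the 13 genes was called higher against the libraries without R, so the call of Mas1 was lost there too. Its wildtype mean lay close to the threshold of the filter, a log2 CPM of 1. Atp6ap2, the prorenin receptor and an accessory subunit of the vacuolar proton pump, rose by 0.29 (adjusted p = 0.0113), but against the libraries without R the log2 fold change was 0.08 (adjusted p = 0.588). The other angiotensin receptors had very low levels, with at most 0.12 CPM of Agtr1b and 0.16 CPM of Agtr2 in any kidney. Mrgprd had no count in any of the 32 kidneys.

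The largest difference in the pathway was that of Klk1, tissue kallikrein, a protease of the distal tubule that releases kinins. Wildtype kidneys had 1463 to 2176 CPM and PKD kidneys 496 to 749 CPM, with no overlap. Klk1 fell by 1.55 on the log2 scale (SE 0.10, adjusted p = 5.16e-14), and by 1.65 and 1.38 against the libraries ending in R and the others. The second gene that fell was Thop1, thimet oligopeptidase, by 0.22 (adjusted p = 0.0214), and it had a log2 fold change of 0.02 against the libraries without R.

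**Figure D4:**
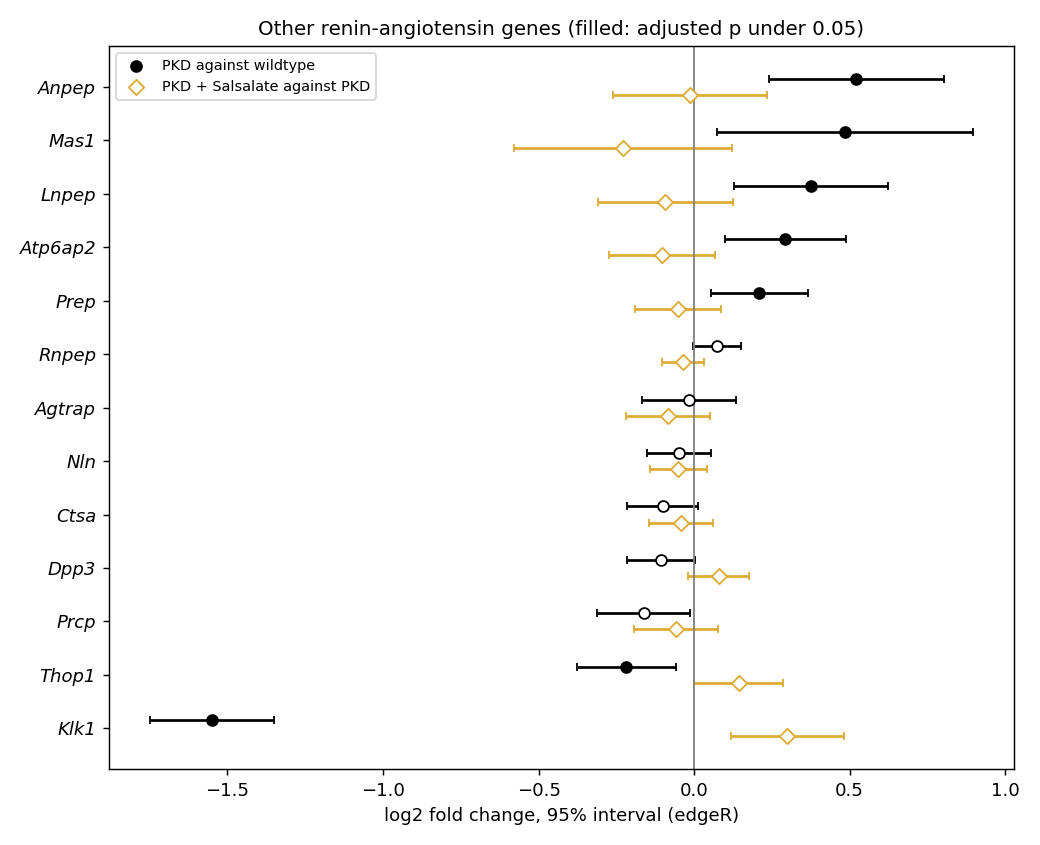
Log2 fold change with its 95% interval (horizontal axis) of the 13 further pathway genes tested, in PKD against wildtype (black) and PKD + Salsalate against PKD (yellow). Filled symbols passed an adjusted p of 0.05, which 7 genes did in the first comparison, with Klk1 at -1.55 as the largest difference, and none did in the second.

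Klk1 belongs to the part of the nephron on which aldosterone, a downstream hormone of the system, acts. Of 18 genes of aldosterone signaling and distal sodium transport, 1 rose and 9 fell in PKD, with a median log2 fold change of -0.17, beside 24.1% and 25.0% of all genes tested. The largest falls were those of Klhl3, which targets WNK kinases for degradation, by 1.07, and Slc12a3, the thiazide-sensitive sodium chloride cotransporter, by 1.03 (adjusted p = 3.51e-13). The mineralocorticoid receptor Nr3c2 fell by 0.38 (adjusted p = 0.000171) and Sgk1, a kinase that aldosterone induces, by 0.42 (adjusted p = 0.000909). Atp1b1, a subunit of the sodium pump, was the gene that rose, by 0.37 (adjusted p = 0.0306). Against the libraries ending in R 5 of these 18 genes rose and 10 fell, and against the others none rose and 11 fell. The call of Atp1b1 as higher was thus lost against the libraries without R. Nr3c2, Sgk1 and Slc12a3 were named after their values were seen.

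The second question was whether salsalate for 2 weeks changed these genes in PKD kidneys. None of the 6 was called in PKD + Salsalate against PKD with edgeR, none had an unadjusted p under 0.05, and none was called with DESeq2 or limma-voom. Among all 13961 genes tested, 0.58% were called with edgeR, and 1436 had an unadjusted p under 0.05. For Ren1, Ace and Mme the log2 fold changes were -0.03 (95% interval -0.34 to 0.29), -0.01 (-0.28 to 0.27) and 0.00 (-0.20 to 0.21). For Agtr1a it was 0.06 (-0.07 to 0.19) and for Enpep -0.06 (-0.27 to 0.15). The intervals hold the changes that these kidneys leave possible.

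Agt had the lowest unadjusted p of the 6. PKD + Salsalate kidneys ranged from 40.0 to 74.8 CPM, with a median of 65.9 CPM, and all 12 lay below the PKD median of 75.0 CPM. That median was 73.3 CPM without PKD replicate 10, and PKD + Salsalate replicates 5 and 12, at 74.8 and 74.2 CPM, lay above it. The log2 fold change was -0.17 (SE 0.09, 95% interval -0.36 to 0.02, p = 0.0714, adjusted p = 0.553 in edgeR). Without PKD replicate 10 it was -0.12 (adjusted p = 0.755). Of the 13 further pathway genes none was called with edgeR and 1, Klk1, with DESeq2 (adjusted p = 0.0490). The unadjusted p in edgeR was under 0.05 for 2 of the 13, beside 1436 of all 13961 genes tested. The 2 genes were Thop1 (log2 fold change 0.14, adjusted p = 0.479) and Klk1 (0.30, adjusted p = 0.109).

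Set against the same wildtype kidneys, PKD + Salsalate gave a similar picture, and since both comparisons share these controls their resemblance is not an independent result. Here 4 of the 6 genes were called, against 44.9% of all genes tested. Agt fell by 0.54 on the log2 scale (adjusted p = 5.31e-05), with 11 of 12 kidneys below the lowest wildtype kidney. Ace fell by 0.47 (adjusted p = 0.0117) and Ren1 by 0.46 (adjusted p = 0.0266), and Agtr1a rose by 0.23 (adjusted p = 0.00803). The call for Ren1 was lost without wildtype replicate 1 (log2 fold change -0.23, adjusted p = 0.205) and that for Ace without replicate 7 (-0.32, adjusted p = 0.0570). Mme and Enpep had log2 fold changes of 0.19 (adjusted p = 0.184) and 0.13 (adjusted p = 0.389).

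The set of wildtype libraries changed 5 of these 6 calls, that for Agt being the exception. Agt fell by 0.54 on the log2 scale with only the libraries ending in R (adjusted p = 0.000254) and by 0.55 with only the rest (adjusted p = 0.00208). Ace had a log2 fold change of -0.08 against those ending in R (adjusted p = 0.653) and fell by 0.95 against the others (adjusted p = 2.28e-07). The calls for Ren1 and Agtr1a were lost against the libraries without R, at -0.39 (adjusted p = 0.112) and 0.07 (adjusted p = 0.559). Mme and Enpep rose by 0.45 (adjusted p = 0.000599) and 0.35 (adjusted p = 0.0133) against those ending in R, and had log2 fold changes of -0.17 (adjusted p = 0.298) and -0.18 (adjusted p = 0.327) against the others.

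To describe how the 6 genes varied among kidneys of 1 group, log2 CPM were centered on each group's mean and correlated over the 32 kidneys. These correlations are descriptions, since kidneys share their library sets and a common composition. Mme and Enpep varied together (Pearson's r = 0.90, Spearman's rho = 0.85), also among the 24 PKD kidneys alone (r = 0.87). Ren1 had a Pearson correlation of at most 0.32 in size with the others, and its r with Ace was -0.32 with and 0.13 without wildtype replicate 1. Agt, likewise, had an r of at most 0.36 with any other.

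The 3 tested genes whose profile was most like that of each member differed between members. For Ace they were Chst7 (r = 0.94), Treh, the trehalase of the brush border (0.94), and Slc22a6, an organic anion transporter of the proximal tubule (0.93). The r with Chst7 was 0.72 among the 24 PKD kidneys alone, and those with Treh and Slc22a6 were 0.86 and 0.84. For Mme they were Entpd5, Cers6 and Aplp2 (r = 0.94 each), and for Enpep Asph (0.95), Lamp2 (0.94) and Itgav (0.93). For Agtr1a they were Col4a4, a collagen chain of the glomerular basement membrane (0.80), Serinc1 (0.80) and Tmem87b (0.78). For Agt they were Aaas (0.75), Ctsa, a lysosomal carboxypeptidase of the wider pathway (0.74), and Ephx1, an epoxide hydrolase (0.70), and without the kidneys with the most extreme Agt, PKD + Salsalate replicate 10 and PKD replicate 4, these fell to 0.53, 0.64 and 0.43. The correlations of Ren1, with Acaa2 (0.64), Gatm (0.62) and Nob1 (0.62), rested on few kidneys, at 0.25, 0.22 and 0.45 without wildtype replicate 1 and PKD + Salsalate replicate 1.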

How the data were processed

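Poly(A) RNA of 32 kidneys was sequenced. Per the labels and the study's methods, the authors used STAR 2.7.5a on GRCm39 and strand-aware counting with HTSeq 0.12.4. The deposited table holds raw counts per gene, without normalization, and its lines for uncounted reads were left out. Genes took 73.6% to 83.1% of the alignments, with the 5 wildtype libraries ending in R below the other 3.

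Groups came from the sample labels. The filter was that of the study, which asks for log2 CPM above 1 in 25% of the kidneys. Counts were normalized by TMM and fitted for all 3 groups together in edgeR 4.0.16 (R 4.3.3), with 2-sided quasi-likelihood tests and Benjamini-Hochberg adjustment over all 13961 genes. For log2 CPM a prior count of 2 was used. The script was tested on simulated data. Alternatives were DESeq2 1.42.0, limma-voom 3.58.1, other filters, sets of wildtype libraries and kidneys left out. P-values measure the spread between kidneys.

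The genes and lists were chosen with earlier results of these data known. Named genes were the 6 members, 6 fixed pathway genes, up to 3 further called pathway genes per direction, the 3 best-correlated genes per member, Pkd1 and the largest rise and fall of each list; other names are stated where used. Positions and transcript lengths came from GENCODE vM39, which held 52610 of the 53700 identifiers, and promoters from RefSeq. Exons of Agt and Ace overlap genes on the opposite strand. Kidneys with the same replicate number did not deviate together, and no 2 libraries were identical. One gene of the pathway list, and the comparisons that used it, are not reported here.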

Additional observations from a re-analysis of the deposited data

Results flagged for a closer look

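Wildtype kidneys were compared among themselves for 14 genes, and a kidney was picked out where its gap to the nearest other kidney was large for the range of the group. Chance picks out about 1 in 20 groups. Ren1 was 144.8 CPM in wildtype replicate 1, with the next kidney at 77.2 CPM and a gap of 0.70 of the range. The same kidney had the lowest Ace of all 32 kidneys, 84.1 CPM. Prep was 31.6 CPM in wildtype replicate 7, with the next kidney at 25.2 CPM and a gap of 0.54 of the range.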

How the results depend on the processing

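Of the log2 fold changes of the 6 genes, those of Agt kept their call in PKD against wildtype in every alternative run. The number of the 6 genes called in PKD against wildtype, 4, became 2 without the 3 kidneys that stand apart (wildtype replicate 1, PKD replicates 10 and 12, left out together after the data were seen), with limma-voom, without a filter and against the wildtype libraries without R, and 2 to 5 without 1 kidney each, lowest without PKD replicate 2 or wildtype replicate 1 and highest without wildtype replicate 7. The 7 wider pathway genes became 4 without those 3 kidneys and against the libraries without R. Of all 13961 genes tested, 6852 were called in PKD against all wildtype kidneys, and 6220 without those 3 kidneys. The number was 6800 with limma-voom, 5654 against the libraries without R, 6177 to 7254 without 1 kidney each, and 7906 of 33588 without a filter. In PKD + Salsalate against PKD, the 0 wider pathway genes became 1 with DESeq2, and 0 to 1 without 1 kidney each. The 81 genes called there became 199 with DESeq2, 146 with limma-voom, 196 with only these groups, 139 and 244 with the wildtype libraries ending in R or without R in the fit, and 39 to 216 without 1 kidney each, the last without PKD + Salsalate replicate 11. In PKD + Salsalate against wildtype, the 4 members called became 2 against the libraries without R, and the 4 wider genes became 2 without a filter and 7 against the libraries ending in R. In that comparison 6269 of all 13961 genes were called against all wildtype kidneys. The number was 4824 against the libraries without R, 8117 against those ending in R, and 6919 of 33588 without a filter. The causes were not tested.

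Replicate numbers occur in all groups, but samples with the same number did not deviate together, since the correlation was over 0.1 in 3 of 8, 3 of 8 and 2 of 12 pairs, and 3 of 32 samples correlated best with their own number. With the number as a replicate block, 2 of the 6 genes and 3 wider pathway genes were called in PKD against wildtype, beside 5839 of all 13961 genes tested. In PKD + Salsalate against PKD, 48 genes were called in that fit.

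In PKD + Salsalate against all wildtype kidneys, log2 ratios to the proximal tubule genes differed by -0.49 for Agt and 0.29 for Mme (adjusted p = 0.00686 each, permutation test). Enpep differed by 0.21 (adjusted p = 0.0240) and Ace by -0.29 (adjusted p = 0.0807). Against PKD no ratio was called, with the lowest adjusted p, 0.0852, for Agt at -0.17. For these ratios, the libraries without R gave Ace -0.52 in PKD and -0.53 in PKD + Salsalate against wildtype, Mme 0.23 and, with salsalate, 0.24, Enpep 0.27, and Agt 0.016 and, with salsalate, -0.15. With salsalate, the calls for Agt and Mme were lost against these libraries, and that for Enpep against those ending in R. Those ending in R gave Enpep 0.26 and, with salsalate, 0.21. Summed markers gave Agt -0.22 in PKD. Without wildtype replicate 1 or PKD replicate 10, the ratios ranged from -0.44 to -0.27 for Ace in PKD and -0.45 to -0.29 with salsalate, and from -0.34 to -0.25 for Agt in PKD.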

Other observations

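Counts against all wildtype kidneys in this paragraph stand beside 49.1% of all genes called in PKD against wildtype. Of the 13961 genes tested, 8342 were called with only the wildtype libraries ending in R, and 5654 with only the rest. Among other cell types listed as context, all 6 fibroblast genes rose in PKD (4 with only the wildtype libraries ending in R in the fit, 5 with only the rest), with the largest rise in Col1a1, a collagen chain, at 2.32 on the log2 scale. Of 6 mesangial and pericyte genes 3 rose and 1 fell, led by Mcam, an adhesion molecule, which rose by 1.22, and Gata3, which fell by 0.63. Of these, 3 rose with only the libraries ending in R and 3 fell, while 4 rose and none fell with only the rest. Of 7 endothelial genes 2 rose and 3 fell, with Cdh5, endothelial cadherin, up by 0.70 and Flt1, a receptor for vascular endothelial growth factor, down by 0.55. With only the libraries ending in R 2 rose and 4 fell (median log2 fold change -0.17), and against the others 3 rose and 1 fell (median 0.18). Of 8 adipose genes 7 were tested and 2 fell, with Retn, resistin, lower by 1.51 (2 with only the libraries ending in R, 1 with only the rest). Of 6 mast cell genes 2 were tested and 1 rose, Ms4a2, a subunit of the IgE receptor, by 1.75 (2 rose with only the libraries ending in R, 1 with only the rest). Of 20 liver genes 13 were tested and 7 rose, with Fgb, a fibrinogen chain, at 5.26, and when PKD replicate 10 was left out 4 rose and 6 fell, while against the libraries without R 2 rose. Of 8 adrenal cortex genes 1 was tested, Star, which rose by 1.07 but was called against neither set alone, with its highest level in PKD replicate 12 and at most 4.67 CPM in any other PKD kidney.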
